A study of Mus musculus with 4 samples.

Results

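Esr1, Esr2, Pgr, Esrrg and Esrrb, 5 of the 31053 genes counted, were chosen by gene symbol as receptors for estrogen and progesterone and estrogen-related receptors, not as every sex steroid receptor, and were followed across the cell types and neuron populations of the mouse mediobasal hypothalamus. Single-nucleus RNA sequencing had been run on nuclei of wild-type mice fed chow ad libitum, after insulin (2 Insulin libraries) or saline (2 Saline libraries). Dose, route, time after injection, sex, age and the number of mice per library are not given in the sources used here. A p-value between treatments or between runs thus sees only the spread among the 4 libraries, and it may be technical. Tests between cell types or between populations remove shifts shared within a library and see the spread that remains. The deposited nucleus table names a pair of sequencing runs, called run A and run B here, and each group had 1 library in each. Unless the run is a term in the fit, the spread within a group also holds the difference between runs. Counts of unique molecular identifiers (UMIs, 1 per captured RNA molecule) were summed over the nuclei of a library and are given as CPM, the count scaled to the UMIs of the same nuclei.

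Estrogen receptor alpha (Esr1) and beta (Esr2) and the progesterone receptor (Pgr) are ligand-activated transcription factors through which ovarian steroids act on hypothalamic neurons. In the arcuate nucleus they are known for steroid feedback on reproductive hormone release, and estrogen is known to raise Pgr in some of the neurons that carry Esr1. Esrrg and Esrrb encode estrogen-related receptors, which resemble estrogen receptors in sequence but bind no estrogen and are known for control of mitochondrial genes (Esrrg) and of stem cell and inner ear genes (Esrrb).

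A pair of promoter windows is shown because Pgr is the classic estrogen-induced gene of the group and Esr2 is the other estrogen receptor. Each is the 250 bases before the RefSeq start (GRCm38.p6), 5′ to 3′ on the gene's own strand, in lower case with the letters GGTCA, the estrogen response half-site, in capitals.
Pgr, chr9:8899583-8899832, plus strand: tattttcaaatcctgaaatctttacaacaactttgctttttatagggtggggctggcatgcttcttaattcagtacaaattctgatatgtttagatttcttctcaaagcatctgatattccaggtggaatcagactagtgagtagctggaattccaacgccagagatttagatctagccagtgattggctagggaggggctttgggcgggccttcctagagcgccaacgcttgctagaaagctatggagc
Esr2, chr12:76177260-76177509, minus strand: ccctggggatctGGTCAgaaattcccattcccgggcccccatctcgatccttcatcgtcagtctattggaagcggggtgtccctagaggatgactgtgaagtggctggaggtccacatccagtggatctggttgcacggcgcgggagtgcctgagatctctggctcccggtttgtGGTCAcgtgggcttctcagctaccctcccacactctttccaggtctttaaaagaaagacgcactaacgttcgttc
The full estrogen response element, GGTCA and its reverse complement TGACC around any 3 bases, occurred on either strand in 0.0639% of 32851 windows of this length, the estrogen-related receptor half-site AAGGTCA in 4.08% and GGTCA itself, which lies within both, in 35.2%. GGTCA occurred in the Esr2 window and not in the Pgr window, and the longer motifs occurred in neither. In the GENCODE vM21 annotation (GRCm38), Esr1 spans chromosome 10 from 4611593 to 5005614 (plus strand), Esr2 chromosome 12 from 76120419 to 76177259 (minus), Pgr chromosome 9 from 8899833 to 8968611 (plus), Esrrg chromosome 1 from 187608791 to 188214885 (plus) and Esrrb chromosome 12 from 86361117 to 86521628 (plus). No other annotated gene overlaps Esr1, Pgr or Esrrb. Esr2 holds the pseudogene Gm7862 on its own strand, and 4 annotated genes, 1 of them on the same strand, overlap Esrrg, so reads of these genes may be shared.

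The 4 libraries held 8352 to 9796 annotated nuclei and 63590421 to 71391593 UMIs, 36523 nuclei in all. Over all nuclei the run B libraries held Xist at 1713 and 1614 CPM and the Y-linked Uty at 1.02 and 1.40 CPM. The run A libraries held 4.88 and 4.53 CPM of Xist and 175 and 177 CPM of Uty. Run and sex-linked expression thus coincide, and a difference between runs given below cannot be told apart from one between sexes. Of 36205 distinct barcode sequences, 318 occurred in more than 1 library, 179 of them in the pair of run A. The authors' names were kept, and 1 went against its markers. Nuclei annotated Endothelial held the endothelial marker Cldn5 at 0 to 2.26 CPM and the tanycyte marker Rax at 77.0 to 96.6 CPM, whereas those annotated Mural Cell held Cldn5 at 404 to 662 CPM beside the mural marker Pdgfrb at 485 to 568 CPM. Fewer cells of a type and less RNA per cell cannot be told apart in levels over all nuclei.

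Esr1 and Pgr were mainly neuronal transcripts, whereas Esrrg was as high in ependymal cells as in neurons and Esrrb was highest in astrocytes. Esr1 was at 48.8 and 79.7 CPM in the neurons of the Insulin libraries and at 66.6 and 71.8 CPM in those of the Saline libraries (runs A and B in turn), a mean of 66.7 ± 13.1 CPM (SD, n = 4 libraries, as throughout). Each of these values lay above every value of the other 7 cell types, whose means ran from 32.3 ± 13.4 CPM in nuclei annotated Ependymo to 5.63 ± 2.05 CPM in astrocytes. Pgr averaged 60.0 ± 4.75 CPM in neurons, 22.9 ± 7.24 CPM in microglia, 19.6 ± 14.4 CPM in oligodendrocyte precursors (OPC) and at most 8.15 CPM elsewhere. Esr2 was scarce, at 5.89 ± 1.86 CPM in neurons, and had 0 UMIs in Ependymo and Mural Cell nuclei. These cell types had the fewest nuclei, 274 and 362, so 0 UMIs does not show absence.

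Esrrg averaged 286 ± 132 CPM in Ependymo nuclei, where its 4 libraries ran from 152 to 447 CPM, and 259 ± 20.2 CPM in neurons, so their ranges overlapped. It was near 100 CPM in astrocytes (100.02 ± 4.12) and OPC (104 ± 16.4) and at 7.03 ± 1.83 CPM in oligodendrocytes. Esrrb reached 4.55 ± 0.97 CPM in astrocytes, from 82 UMIs, and 2.20 ± 0.16 CPM in neurons. All 4 astrocyte values of Esrrb, from 3.51 to 5.79 CPM, lay above the 4 neuronal values, and the other cell types averaged under 1 CPM.

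**Figure D1:**
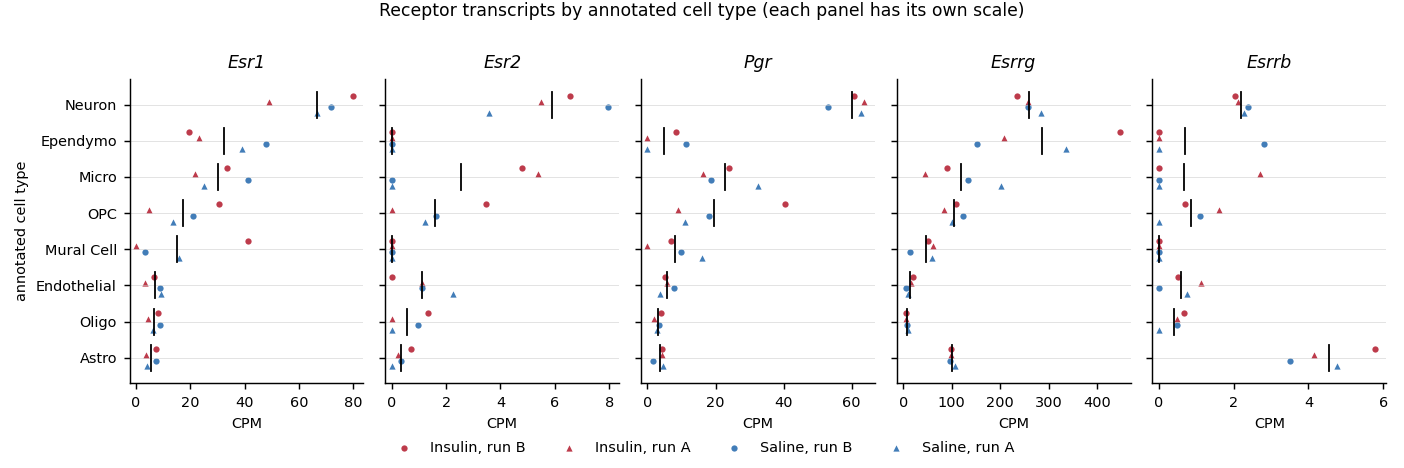
CPM of each receptor gene (horizontal axes, a scale per panel) in the 8 annotated cell types (vertical axis). Points are the 4 libraries, Insulin in red and Saline in blue, circles for run B and triangles for run A, and black lines are the means. The Esr1 and Pgr points of neurons lie right of those of every other type, and the Esrrb points of astrocytes right of those of neurons.

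Each cell type was compared with the mean of the other types by edgeR's quasi-likelihood test with the library as a block and Benjamini-Hochberg adjustment over all genes tested. Of 40 combinations of gene and type 24 passed the filter on low counts, with none for Esr2 or Esrrb. Esr1, Pgr and Esrrg were higher in 11 of the 24 (45.8%) and lower in 9 (37.5%), beside 25.2% and 21.3% of all gene tests. In neurons the log2 difference was 2.42 (SE 0.11) for Esr1, 3.03 (SE 0.14) for Pgr and 2.32 (SE 0.15) for Esrrg, with edgeR adjusted p-values of 6.71e-20, 9.98e-20 and 2.07e-15. Esrrg was higher in Ependymo nuclei by log2 2.39 (SE 0.21, edgeR adjusted p = 1.64e-11) and lower in oligodendrocytes by log2 -3.49 (SE 0.31, edgeR adjusted p = 6.98e-12). All 3 genes also passed as higher in microglia, with log2 0.96 for Esr1, 1.26 for Pgr and 0.83 for Esrrg. The summed level of the neuronal markers Rbfox3, Snap25 and Syt1 in microglia was 431 and 1429 CPM in the Insulin libraries and 1662 and 1675 CPM in the Saline libraries, against a mean of 2850 CPM in neurons, and its part in these values was not tested.

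Among neurons, Esr1 was concentrated in a small number of populations. The 35 populations ranked and tested had at least 10 nuclei in every library, and M2.Hdc (101 nuclei) and M13.Irx5 (607 nuclei), with 2 and 9 nuclei in the Saline library of run B, were left out. In M28.Tac2, named for the gene of the neuropeptide neurokinin B, Esr1 was at 774 and 1088 CPM in the Insulin libraries and at 745 and 1200.0 CPM in the Saline libraries. In M25.Ghrh, named for growth hormone-releasing hormone, it was at 494 and 680 CPM in the Insulin libraries and 626 and 626 CPM in the Saline libraries. Every M28.Tac2 library lay above every M25.Ghrh library, and these above those of M34.Esr1/Npy1r, the population the authors named for Esr1, at 259 and 325 CPM in the Insulin libraries and 312 and 341 CPM in the Saline libraries. M11.GLUT, a glutamatergic population, followed at 124 and 249.6 CPM in the Insulin libraries and 150.0 and 234 CPM in the Saline libraries, and overlapped M30.Gal (177 ± 10.4 CPM). The next in order, M31.Th and M35.Pomc, averaged 134 ± 7.80 and 132 ± 45.8 CPM and overlapped each other. The median of the 35 populations was 43.8 CPM, and M8.Nr5a1, named for a marker of the ventromedial nucleus, was lowest of these at 11.4 ± 3.58 CPM. In M2.Hdc, outside the 35, the mean was 6.74 CPM from 14 UMIs. M28.Tac2 gave 13.8% of neuronal Esr1 UMIs from 1.11% of neurons, and M28.Tac2, M11.GLUT and M25.Ghrh together gave 35.1% from 5.74%.

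Pgr ranked the same 4 populations highest. It was at 253 and 228 CPM in the Insulin libraries and at 283 and 188 CPM in the Saline libraries of M34.Esr1/Npy1r, and at 211 and 259.9 CPM in the Insulin libraries and 204 and 203 CPM in the Saline libraries of M28.Tac2. These ranges overlapped. M25.Ghrh followed at 174 ± 21.9 CPM, and M11.GLUT at 174 and 146 CPM in the Insulin libraries and 163 and 64.4 CPM in the Saline libraries, where the Saline library of run B stood low. Pgr was spread more evenly than Esr1. Its highest population was 4.91 times the median of 48.5 CPM, against 21.8 times for Esr1.

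The order of populations was different for Esr2. The Esr2 mean was highest in M24.Avp/Oxt, named for vasopressin and oxytocin. The Insulin libraries there held 27.6 and 20.2 CPM and the Saline libraries 28.8 and 37.9 CPM, from 52 UMIs. M18.Prlh, named for prolactin-releasing hormone, averaged 18.9 ± 6.49 CPM, and its range overlapped that of M24.Avp/Oxt. M23.Sim1|Pou3f2 averaged 17.3 ± 18.1 CPM, with 12.4 and 8.81 CPM in the Insulin libraries and 3.95 and 44.02 CPM in the Saline libraries, so its mean rests on the Saline library of run B. M11.GLUT, one of the 4 populations highest in Esr1 and Pgr, came next at 15.8 ± 10.4 CPM and gave 11.8% of neuronal Esr2 UMIs, and M17.GABA averaged 12.9 ± 1.90 CPM. In M28.Tac2, where Esr1 was highest, Esr2 had 2 UMIs in all.

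Esrrg was present in each of the 35 populations, from 121 ± 23.2 CPM in M31.Th to 485 ± 30.2 CPM in M20.GABA, around a median of 228 CPM, and averaged 99.9 CPM in M2.Hdc, outside the 35. The M20.GABA libraries, at 469 and 496 CPM under Insulin and 452 and 521 CPM under Saline, lay above those of the next population, M10.Sim1|Trh (384 ± 16.1 CPM). Of the 35 populations Esrrb was highest in M26.Agrp, the feeding-promoting neurons named for agouti-related peptide, at 4.51 and 7.89 CPM in the Insulin libraries and 7.91 and 18.5 CPM in the Saline libraries, from 49 UMIs. In M2.Hdc, outside the 35, Esrrb was at 19.98 and 4.75 CPM in the Insulin libraries and 16.5 and 0 CPM in the Saline libraries, from 23 UMIs, a mean of 10.3 CPM beside 9.72 CPM in M26.Agrp. The next of the 35 populations overlapped M26.Agrp, and the order of Esrrb rests on few UMIs.

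**Figure D2:**
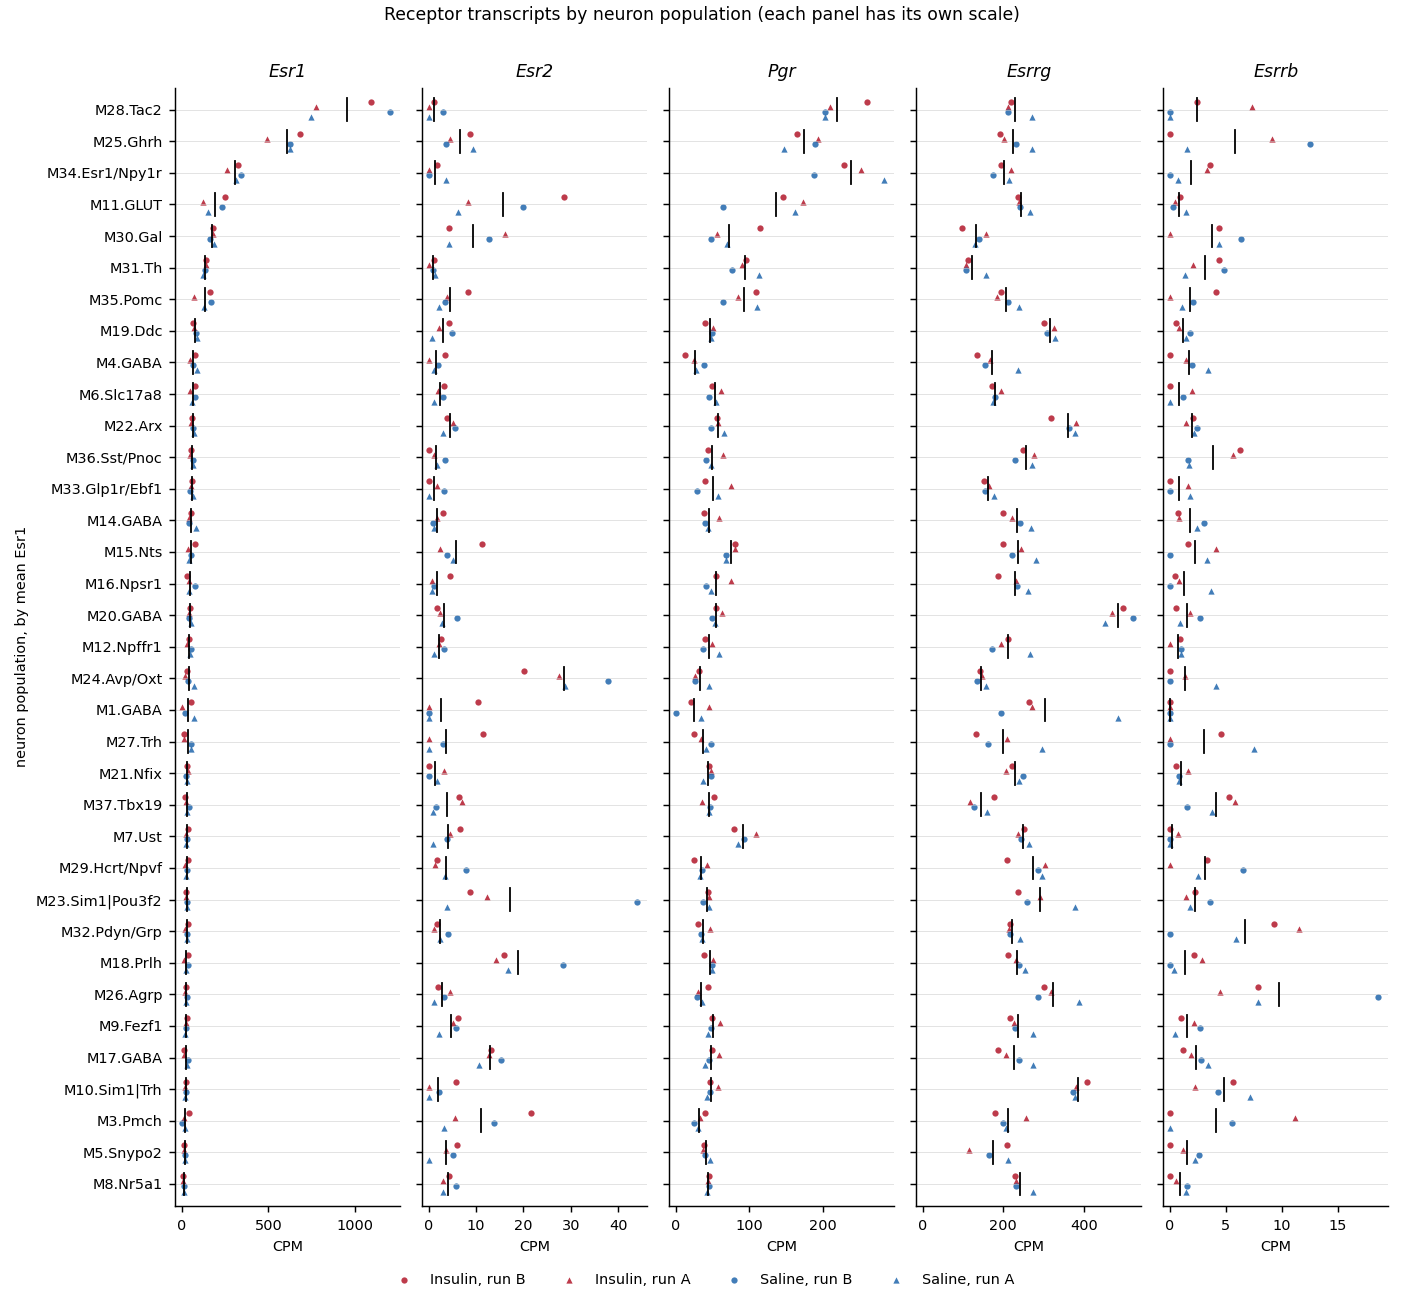
CPM of each receptor gene (horizontal axes, a scale per panel) in 35 neuron populations, ordered by mean Esr1 (vertical axis). Points are the 4 libraries, Insulin in red and Saline in blue, circles for run B and triangles for run A, and black lines are the means. Esr1 falls steeply over the top 4 rows, Pgr peaks in the same rows and Esrrg in M20.GABA. The Esr2 mean is highest in M24.Avp/Oxt, though its highest point is the Saline library of run B in M23.Sim1|Pou3f2.

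Against the mean of the other populations, by the same edgeR test, the 5 genes gave 175 tests. They were higher in 38 (21.7%) and lower in 33 (18.9%), beside 13.0% and 8.16% of all gene tests. The authors defined the populations from these same nuclei, so these tests only describe how far such populations lie apart. With the library as a block, a shift shared by all populations of a library is removed. The error is the spread that remains, pooled over populations, so small p-values here do not measure separation against the spread among the 4 libraries. Esr1 passed as higher in 10 populations and lower in 15, Pgr in 8 and 9, Esrrg in 11 and 8, Esr2 in 6 and 1, and Esrrb in 3 and 0. Esr1 was higher by log2 4.25 (SE 0.09) in M28.Tac2, 3.59 (SE 0.10) in M25.Ghrh, 2.50 (SE 0.10) in M34.Esr1/Npy1r and 2.00 (SE 0.09) in M11.GLUT, with edgeR adjusted p-values of at most 6.05e-43. Pgr was higher in the same 4 by log2 2.03 (SE 0.12), 1.66 (SE 0.13), 2.05 (SE 0.09) and 1.42 (SE 0.08), with edgeR adjusted p-values of at most 1.88e-22. Esr2 was higher by log2 3.06 (SE 0.37) in M24.Avp/Oxt and 2.39 (SE 0.24) in M18.Prlh, and Esrrg by log2 1.17 (SE 0.06) in M20.GABA. In M26.Agrp Esrrb was higher by log2 2.26 (SE 0.37, edgeR adjusted p = 9.31e-08) and Esrrg by log2 0.46 (SE 0.07), whereas Esr1 and Pgr were lower by log2 -1.19 (SE 0.18) and -0.74 (SE 0.14).

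Nearly every M28.Tac2 nucleus held an Esr1 UMI, 252 of 259 (97.3%, exact 95% interval 94.5 to 98.9%). The share was 93.3% in M25.Ghrh, 72.1% in M34.Esr1/Npy1r, 58.3% in M11.GLUT and 10.95% in M8.Nr5a1, against 1.61% in oligodendrocytes, a type that showed little of the gene. Median depths were 7552 UMIs in M28.Tac2, 7908 in M25.Ghrh, 6858.5 in M34.Esr1/Npy1r, 10620 in M11.GLUT, 10757.5 in M8.Nr5a1 and 2354 in oligodendrocytes. With each nucleus thinned to 1000 UMIs, the shares were 57.1%, 41.1%, 26.95%, 14.8%, 1.02% and 0.56% in that order, with 1 nucleus of M8.Nr5a1 and 40 oligodendrocytes too shallow to enter. Pgr UMIs occurred in 64.1% of M28.Tac2 and 66.9% of M34.Esr1/Npy1r nuclei, against 0.753% of oligodendrocytes, and thinned in 16.99%, 21.6% and 0.312%. For Esr2 the share was 23.5% in M24.Avp/Oxt (median 10080 UMIs) and 0.137% in oligodendrocytes, and thinned 3.27% and 0.035%. Intervals cover counting error only.

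Both Esr1 and Pgr were detected in 165 of 259 M28.Tac2 nuclei (63.7%), 162 of 253 M25.Ghrh nuclei (64.0%), 278 of 538 M34.Esr1/Npy1r nuclei (51.7%) and 306 of 823 M11.GLUT nuclei (37.2%). The product of the shares of the single genes was close to this, at 62.4%, 63.0%, 48.3% and 32.3% in that order. In M11.GLUT Pgr was found in 63.8% of nuclei with an Esr1 UMI and 43.7% of those without, and in M34.Esr1/Npy1r in 71.6% and 54.7%. Nuclei with an Esr1 UMI were deeper, with a median of 11219.5 against 9844 UMIs in M11.GLUT and 7563.5 against 5770 UMIs in M34.Esr1/Npy1r, and the part of depth in these shares was not tested. Esr1 and Esr2 were detected together in 62 M11.GLUT nuclei (7.53%), 9 M24.Avp/Oxt nuclei (5.88%) and 2 M28.Tac2 nuclei.

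Across the 35 populations, the Pearson correlation of log2(mean CPM + 1) was 0.81 between Esr1 and Pgr, with a Spearman rho of 0.64. The populations share the 4 libraries. Among the 12167 genes compared, Greb1, an estrogen-responsive gene, was the one most like Esr1 (0.84), and Pgr was second. Tbl1x (0.74), Dctn1 (0.73) and Calcoco1 (0.70) followed. Genes most like Pgr were Gm32014 (0.83), Esr1, Greb1 (0.76), Npy5r (0.73) and Fbxo31 (0.72). Esrrg was most like Gm36388 (0.76), an antisense gene that overlaps it and may share its reads, then Myo16 (0.71), Col19a1 (0.67), Glrx (0.65) and Fam196a (0.64). For Esr2 the 5 genes were Macrod2 (0.63), Rdm1 (0.60), Macrod2os1 (0.56), Aacs (0.55) and Stard6 (0.53), and for Esrrb Btrc (0.70), Map3k13 (0.69), Ube2d2a (0.69), Chm (0.68) and Luc7l2 (0.68). Among the other pairs of the 5 receptor genes the correlations lay between -0.20 and 0.08.

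**Figure D3:**
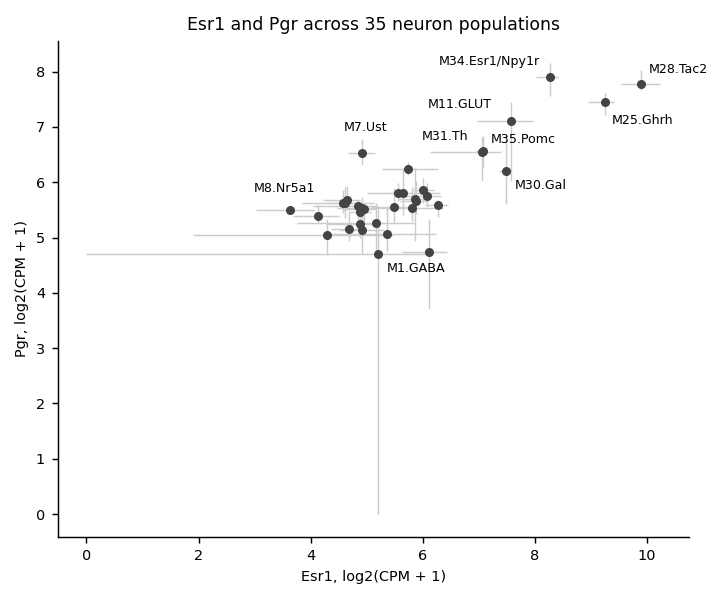
Mean Esr1 (horizontal) against mean Pgr (vertical) in each of 35 neuron populations, both as log2(CPM + 1), with grey bars for the range of the 4 libraries. M28.Tac2, M25.Ghrh, M34.Esr1/Npy1r and M11.GLUT form the upper right end, and Pgr means of the other populations run from 25.1 CPM in M1.GABA to 93.9 CPM in M31.Th.

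Genes of the steroid receptor pathway were followed as a list of 25 (related receptors, co-regulators, chaperones, steroid enzymes and steroid-responsive hypothalamic genes), of which 22 were tested across populations. In M28.Tac2 7 were higher and 3 lower by edgeR, beside 10.83% of all genes higher and 8.94% lower, with a median log2 of 0.11 beside 0.01 over all genes. Greb1 was higher there by log2 4.54, Prlr, the prolactin receptor, by 3.52, Nrip1, a co-repressor of nuclear receptors, by 1.75, and Cyp19a1, aromatase, by 2.93. Kiss1, whose peptide kisspeptin is known from neurokinin B neurons of the arcuate nucleus, had 0 UMIs in all 4 M28.Tac2 libraries, which allows up to 1.39 CPM over the 4 together. In M25.Ghrh 5 were higher, among them Greb1 by log2 3.95, Fkbp5, a chaperone of steroid receptors, by 1.46 and the coactivator Ncoa1 by 1.36, and 1 was lower, Prlr by log2 -4.16, beside 11.6% of all genes higher and 9.73% lower. In M34.Esr1/Npy1r 6 were higher, with Greb1 at log2 3.75 and Prlr at log2 2.32, and 4 lower, beside 11.4% and 9.46% of all genes. In M11.GLUT 5 were higher, led by Cyp19a1 at log2 5.38, and 8 lower, beside 19.3% and 11.1% of all genes. The list's medians were -0.02, 0.15 and -0.07 in these 3 populations, beside -0.01, 0.03 and 0.02 over all genes.

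For none of the 5 genes did a difference between Insulin and Saline libraries pass edgeR's test without a block in any cell type or population. All nuclei, 8 cell types and 35 populations made 44 sets and 220 combinations, of which 138 passed the filter on low counts, and 0 of them passed edgeR's quasi-likelihood test, beside 0.000640% of 468779 gene tests. At an unadjusted p under 0.05 there were 5. DESeq2, limma-voom and the fits with other scaling or without the filter also gave 0. With 2 libraries against 2, an exact permutation test cannot go below p = 0.333.

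In neurons the log2 difference, Insulin minus Saline, was -0.12 for Esr1 (95% interval -0.72 to 0.48), 0.07 for Esr2 (-0.96 to 1.10), 0.10 for Pgr (-0.27 to 0.47), -0.15 for Esrrg (-0.47 to 0.17) and -0.17 for Esrrb (-0.83 to 0.48). In M28.Tac2 it was -0.05 for Esr1 (-0.75 to 0.65) and 0.22 for Pgr (-0.32 to 0.76), in M25.Ghrh -0.09 for Esr1 (-0.54 to 0.36), and in M34.Esr1/Npy1r -0.17 for Esr1 (-0.58 to 0.25). These intervals come from fits without a block, hold the difference between runs and leave room for changes of either sign. With the run as a block, Esr1 was at -0.15 (-0.47 to 0.16) in neurons and -0.04 (-0.40 to 0.31) in M28.Tac2. Some blocked intervals left out 0, among them Pgr in M11.GLUT (0.22 to 0.95, edgeR adjusted p = 0.340) and Esr1 in M16.Npsr1 (-1.14 to -0.23, edgeR adjusted p = 0.249). The Esr1 intervals that did so all lay below 0, also in M8.Nr5a1, M12.Npffr1, M14.GABA, M17.GABA, M19.Ddc, M24.Avp/Oxt and M27.Trh. Those of Pgr, also in M16.Npsr1 and OPC, lay above 0, and those of Esrrg and Esrrb went either way. Over all genes, 842 of 11538 in M16.Npsr1 and 935 of 12613 in M11.GLUT had an unadjusted edgeR p under 0.05 in these fits. Without the block, the Esrrg difference was negative in 35 of the 44 sets where it was tested and the Esr1 difference in 32 of 40. Their medians were -0.15 and -0.18, but the sets share the same 4 libraries. Median differences over all genes were 0.01 in all nuclei and 0.00 in neurons.

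The 5 combinations under an unadjusted p of 0.05 were Esr1 in M17.GABA, M27.Trh and M24.Avp/Oxt and Esrrg in microglia and in nuclei annotated Endothelial. Over all genes, 292 of 11769, 387 of 6958, 245 of 6734, 334 of 8527 and 374 of 11427 were under it in these sets, in that order. In M17.GABA Esr1 was at 13.4 and 15.5 CPM in the Insulin libraries, from 21 and 26 UMIs, and at 30.5 and 33.9 CPM in the Saline libraries, from 72 and 49 UMIs. The groups did not overlap, as was the case for 29.5% of genes there. edgeR gave log2 -1.16 (SE 0.28) with an adjusted p of 1.00 without a block. With the sequencing run as a block it was log2 -1.17 with an edgeR adjusted p of 0.01997, beside 0.603% of genes called in that fit. That fit has 1 residual degree of freedom, and DESeq2 with the same block gave an adjusted p of 1.00. Without a block, leaving out the Saline library of run B gave an edgeR adjusted p of 0.0417, and the other alternatives gave 0.127 to 1.00. In M27.Trh Esr1 was at 12.4 and 16.1 CPM in the Insulin libraries and 56.3 and 54.3 CPM in the Saline libraries, from 7 to 18 UMIs each (log2 -1.91, SE 0.47, edgeR adjusted p = 0.481). In microglia Esrrg was at 45.8 and 91.3 CPM in the Insulin libraries and 203 and 135 CPM in the Saline libraries (log2 -1.34, SE 0.44, edgeR adjusted p = 0.895). The neuronal marker sum given above for microglia was lowest in the Insulin library of run A, as Esrrg was, and its part was not tested. Esrrg in Endothelial nuclei went the other way, at 15.8 and 19.8 CPM in the Insulin libraries and 9.81 and 6.69 CPM in the Saline libraries, from 6 to 38 UMIs each (log2 1.08, SE 0.43, edgeR adjusted p = 1.00). For Esr1 in M24.Avp/Oxt the difference was log2 -1.18 (SE 0.52, edgeR adjusted p = 0.999). For the 25 pathway genes, 0 of 721 tests passed edgeR without a block, with 17 at an unadjusted p under 0.05, and 0 passed DESeq2 or limma-voom. With the run block 2 passed, both for Tac1, the gene of the neuropeptide substance P, which was higher by log2 0.89 in M17.GABA and 0.65 in M16.Npsr1 (edgeR adjusted p = 0.0181 and 0.0355). Of all genes, those fits called 0.603% in M17.GABA and 0.295% in M16.Npsr1.

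**Figure D4:**
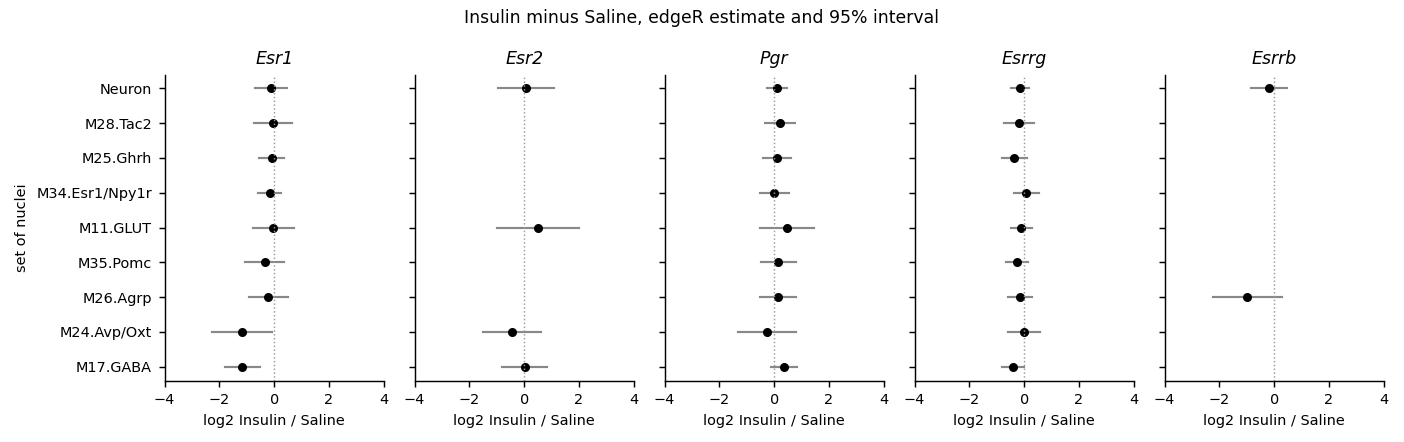
edgeR log2 difference, Insulin minus Saline (horizontal axes), with 95% intervals, for each receptor gene in neurons and in 8 neuron populations (vertical axis), without a run block. Combinations that failed the filter on low counts are left blank. Most intervals include 0, and those of Esr1 in M24.Avp/Oxt and M17.GABA lie below it without passing the adjusted test. M27.Trh, where the Esr1 interval also lay below 0 (-2.94 to -0.88), is not drawn.

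In fits with a term for treatment and one for run, more tests of the receptor genes passed between the sequencing runs than between the treatments. In the same 44 sets 6 of 138 tests passed between run B and run A by edgeR, 4 higher and 2 lower in run B. This is close to the 4.03% of all gene tests. Between treatments the same fits called Esr1 in M17.GABA alone. These fits have 1 residual degree of freedom, and run coincides with sex-linked expression, as given above. Between the runs 0 passed by DESeq2, and edgeR gave 27 at an unadjusted p under 0.05. Over all genes, 5815 of 20275 were under it in neurons, 2807 of 12613 in M11.GLUT and 996 of 8092 in M28.Tac2. M11.GLUT held 3 of the 6. The run B libraries of M11.GLUT held 249.6 and 234 CPM of Esr1 (Insulin and Saline in turn), against 124 and 150.0 CPM for run A, with log2 0.72 (SE 0.14, edgeR adjusted p = 0.00103). Their Esr2 stood at 28.5 and 19.8 CPM, against 8.38 and 6.30 CPM for run A, with log2 1.61 (SE 0.30, edgeR adjusted p = 0.000762). Pgr went the other way, at 146 and 64.4 CPM in run B and 174 and 163 CPM in run A, with log2 -0.88 (SE 0.18, edgeR adjusted p = 0.00163). Without the Saline library of run B the Pgr value was log2 -0.28, with an edgeR adjusted p of 0.585, and without the Insulin library of run B the Esr1 and Esr2 values were log2 0.65 and 1.33, with edgeR adjusted p-values of 0.123 and 0.194. In M11.GLUT 8.26% of all genes were called between runs, and 51.5% had runs that did not overlap.

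Genes of the pathway list also differed between the runs in M11.GLUT, 3 of 21 tested higher and 5 lower in run B. Of all 12613 genes tested there, 434 were higher and 608 lower. Greb1 was at 16.4 and 6.49 CPM in run B and 44.8 and 38.9 CPM in run A (log2 -2.06, edgeR adjusted p = 7.6e-06), and Cyp19a1 at 6.34 and 8.10 CPM in run B and 39.9 and 30.4 CPM in run A (log2 -2.32, edgeR adjusted p = 2.3e-06). Rprm, an estrogen-responsive gene of ventromedial neurons, was higher by log2 2.05, and Nrip1, Fkbp5 and Pdyn, the prodynorphin gene, were lower by log2 -1.20, -0.79 and -2.29. Hsp90ab1, a chaperone of steroid receptors, was higher by log2 0.83 in M11.GLUT and passed as higher in run B in 27 of 35 populations. Of all gene tests over the 44 sets, 4.03% passed between runs in either direction. Of the 823 M11.GLUT nuclei 797 carried the same second annotation, C27.GLUT, in the deposited table. Among these, Esr1 was at 249 and 251 CPM in run B and 125 and 151 CPM in run A, and Pgr at 146 and 67.1 CPM in run B and 176 and 164 CPM in run A.

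**Figure D5:**
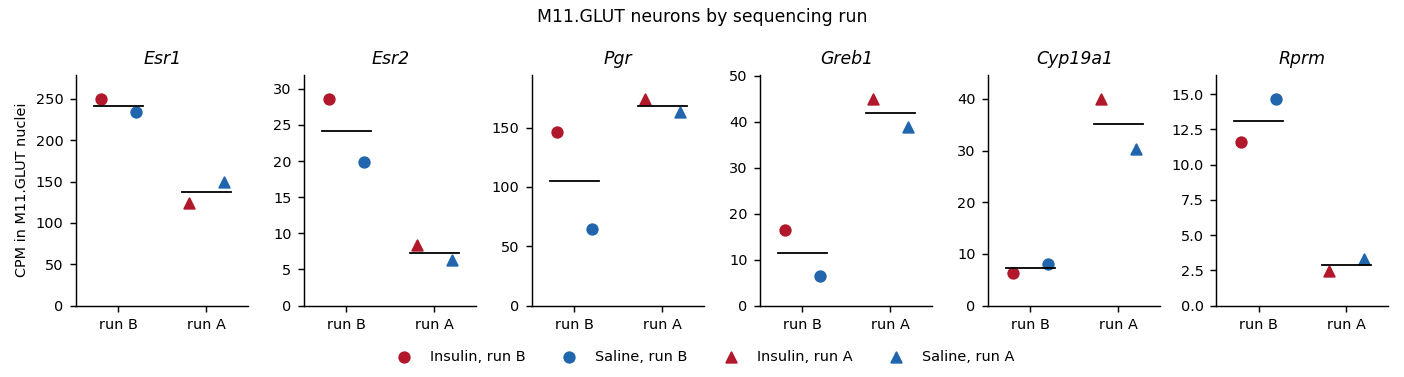
CPM (vertical axes, a scale per panel, from 0) of Esr1, Esr2, Pgr, Greb1, Cyp19a1 and Rprm in M11.GLUT neurons of run B and run A. Points are single libraries, Insulin in red and Saline in blue, and lines are the means of a run. Esr1, Esr2 and Rprm are higher and Greb1 and Cyp19a1 lower in run B, while the low Pgr mean of run B rests mainly on its Saline library.

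In OPC Esr1 was at 30.7 and 20.8 CPM in run B and 4.86 and 13.5 CPM in run A (log2 1.49, SE 0.42, edgeR adjusted p = 0.00716), and Pgr at 40.4 and 18.1 CPM in run B and 8.91 and 11.02 CPM in run A (log2 1.49, SE 0.40, edgeR adjusted p = 0.00412), beside 9.92% of genes called. Neuronal markers in OPC summed to 970 and 1222 CPM in run B and 401 and 579 CPM in run A, and their part was not tested. Esrrg was lower in M23.Sim1|Pou3f2, at 237 and 259 CPM in run B and 289.8 and 378 CPM in run A (log2 -0.49, SE 0.15, edgeR adjusted p = 0.0470), beside 5.46% of genes called there. Esr1 in M28.Tac2 was at 1088 and 1200.0 CPM in run B and 774 and 745 CPM in run A, without overlap, with log2 0.59 (SE 0.15, edgeR adjusted p = 0.179), beside 0.420% of genes called and 44.4% of genes without overlap.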

How the data were processed

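Nuclei cleaned by sorting were sequenced with the 10x 3′ gene expression kit, per the labels' protocols. The authors deposited a raw UMI count matrix. The submitters' processing notes name Cell Ranger and GRCm38, and the version of the tool is not given in the sources used here. A deposited table gives each nucleus's library, run, treatment, cell type and population as the authors assigned them. Of 36534 annotated nuclei, 11 had no matching barcode. A further 4633 barcodes without annotation stayed out, as did nuclei called doublets or unassigned from the sets by cell type. No barcode had under 500 UMIs.

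Counts were summed per library within each set with at least 10 nuclei in every library. edgeR 4.0.16 (R 4.3.3; TMM, filterByExpr with minimum count 10 and minimum total 15, quasi-likelihood, adjusted p threshold 0.05) gave the main tests. Alternatives were DESeq2 1.42.0, limma 3.58.1 with voom, other scaling, no filter, a run block and leaving out each library. Levels, shares and correlations used fixed rules: all 5 genes, the 5 populations highest for each, the 5 most similar genes with at least 5 mean CPM, and list genes that passed. Intervals are exact binomial (95%), and a count of 0 allows 3 counts. The fits were tested on simulated data.

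Deviations from the group means were alike in libraries of the same run (r = 0.72 over 12595 genes in all nuclei, 0.78 over 12130 genes in neurons). The pairing comes from the deposited run column. Library names carry no replicate number of the labels. The members and lists were chosen with earlier results of these data known. One gene of the pathway list is not reported here.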

Additional observations from a re-analysis of the deposited data

Results flagged for a closer look

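In neurons the Insulin library had more Esr1 than the Saline library in run B and less in run A, with log2 ratios of CPM of 0.15 and -0.45. For Esr2 the ratios were -0.28 in run B and 0.62 in run A. With 1 library per treatment and run, the difference between the runs was not tested.

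All 5 genes were also counted in the 4633 barcodes that the authors left without annotation (median 7270 UMIs), above the 0.0808 CPM that a count of 3 would give there. Esr1 was at 51.5 CPM in barcodes without annotation and 57.8 CPM in annotated nuclei, Esr2 at 5.33 and 5.02 CPM, Pgr at 48.8 and 51.7 CPM, Esrrg at 221 and 231 CPM, and Esrrb at 2.23 and 2.20 CPM.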

How the results depend on the processing

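Of the 220 combinations of gene and set, 0 passed between Insulin and Saline in the planned fit. With the replicate block (sequencing run) 1 passed, Esr1 in M17.GABA, and the block changed no other call of the 5 genes. Leaving out 1 library at a time gave 0 to 2. Between runs 6 passed in the planned fit, 0 by DESeq2, 2 without a term for treatment and 2 to 18 with 1 library left out, the most without the Insulin library of run A (18) and the fewest without the Insulin library of run B (2). Leaving out 1 of a pair leaves an arm with 1 library, which is assumed to vary like the others. The counts by cell type (20) and by population (71) stayed within 1.5 times of these values under each alternative run. With 1 library left out, the log2 differences between Insulin and Saline in neurons ran from -0.48 to 0.17 for Esr1 (positive without the Insulin library of run A), from -0.37 to 0.72 for Esr2 (negative without the Insulin library of run B or the Saline library of run A) and from -0.043 to 0.26 for Pgr (negative without the Saline library of run B). The cause was not tested. The OPC values for Esr1 and Pgr missed the threshold without the treatment term (edgeR adjusted p = 0.0752 and 0.0930) and without either Insulin library, and Esrrg in M23.Sim1|Pou3f2 missed it without the treatment term and without 3 of the 4 libraries. An alternative chosen after seeing the data, without barcodes shared by libraries, left the log2 ratio of mean CPM between the runs in M11.GLUT at 0.83 for Esr1, 1.72 for Esr2 and -0.68 for Pgr, against 0.82, 1.72 and -0.68 with them. By Spearman, Greb1 ranked 5 for Esr1, Macrod2 ranked 4 for Esr2 and Btrc ranked 22 for Esrrb. Other ranks fell further. For Esr1, Dctn1 ranked 146 and Calcoco1 ranked 1413. For Pgr, Greb1 ranked 321, Npy5r 122 and Fbxo31 127, while Gm32014 stayed at 1. Few UMIs limit Esr2 and Esrrb most, with 10 and 5 of 44 sets tested.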
